A study of Homo sapiens with 4 samples.

Results

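PC-3 is a human prostate cancer cell line that was derived from a bone metastasis and grows without androgen. RNA sequencing compared PC-3 cells treated for 48 h with 150 µM OICR-9429 with PC-3 cells given its solvent, DMSO, all grown in RPMI1640. There was 1 library per treatment, made from total RNA, so no difference described here has a replicate check and none was tested. The same series holds DU145 cells, another prostate cancer line, with 120 µM OICR-9429 and with DMSO, grown in DMEM. Dose and medium therefore differ with the line, and DU145 values are given for orientation only, with no test of a difference between the lines.

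The 2 PC-3 libraries held 55596000 reads with OICR-9429 and 58623000 reads with DMSO, to the nearest 1000. Values were listed for 23313 genes in PC-3, of the 27658 listed in the series. A gene was counted when its higher library had a value of at least 1 CPM, the reads of a gene scaled to the library total, which left 14623 genes and put 8690 below that line. Differences are log2(CPM + 1) with OICR-9429 minus log2(CPM + 1) with DMSO, which understates the change of low genes. A gene is called higher or lower when this difference is at least 1 in size, a 2-fold change on that scale. Ratios of CPM carry an exact 95% interval in brackets that covers counting error between these 2 libraries only. CYP2D6 (1.01 CPM in its higher library) lay just inside the 1 CPM line and ECM2 (0.989 CPM) just outside it. HOMEZ, at 17.3 CPM with OICR-9429 and 8.15 CPM with DMSO, lay just short of 2-fold.

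OICR-9429 is a small molecule that occupies the pocket of WDR5 to which the histone methyltransferase MLL binds. WDR5 is a shared subunit of several chromatin complexes and also takes part in recruiting MYC to ribosomal and other growth genes. Cells that are short of amino acids, or whose endoplasmic reticulum is overloaded, switch on the transcription factor ATF4 and its targets, while the factors TFEB and TFE3 act on genes of lysosomes and autophagy when mTORC1 is low. The genes described below leave aside 2 sets, the interferon response and DNA replication with cell division.

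The line label was checked against a gene that PC-3 is known to lack. CTNNA1, the adhesion protein alpha-catenin, stood at 3.45 CPM with OICR-9429 and 2.73 CPM with DMSO in PC-3, while DU145 had 656 CPM with OICR-9429 and 499 CPM with DMSO. Markers of other cell types were mostly low or not listed. The 2 listed leukocyte markers of 4 summed to 0.756 CPM with OICR-9429 and 0.819 CPM with DMSO, and the 1 listed basal marker of 3 to 0.144 CPM with OICR-9429 and 0.171 CPM with DMSO. The luminal prostate markers KLK2 and KLK3, which encode secreted proteases, were not listed. HOXB13, a prostate lineage homeobox factor, stood at 183 CPM with OICR-9429 and 253 CPM with DMSO. Of 3 endothelial markers only PECAM1, an adhesion receptor, was listed, at 27.2 CPM with OICR-9429 and 18.2 CPM with DMSO. Among neuroendocrine markers INSM1 was not listed, SYP and CHGA were below 1 CPM in both libraries, and ENO2, a glycolytic enolase also found in other cells, stood at 118 CPM with OICR-9429 and 79.8 CPM with DMSO. The 3 general epithelial markers KRT8, KRT18 and EPCAM summed to 328.7 CPM with OICR-9429 and 488 CPM with DMSO. Of 5 fibroblast markers 4 were listed and 1 was counted, COL1A1, a collagen chain, at 16.8 CPM with OICR-9429 and 68.1 CPM with DMSO. Because these are bulk samples, fewer cells of a kind and less RNA per cell cannot be told apart.

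Of the 14623 counted genes, 15.8% differed by 2-fold, with 7.15% higher and 8.68% lower, and the median difference was −0.01. The counts of the lists below are to be read beside these shares. Outside the 2 sets left aside, 14279 genes remained, of which 972 (6.81%) were higher and 1034 (7.24%) were lower, with 124 higher and 111 lower past 4-fold. Genes averaging over 1000 CPM had 9 of 73 higher and 6 lower. Mitochondrially encoded genes took 6.14% of reads with OICR-9429 and 6.38% with DMSO. The mitochondrial ribosomal and transfer RNAs, which are part of these shares, took 0.862% with OICR-9429 and 0.480% with DMSO. The 13 mitochondrially encoded mRNAs went the other way, summing to 52743 CPM with OICR-9429 and 59012 CPM with DMSO. By transcript length, the median difference lay between −0.05 in the shorter genes and 0.05 in the class of longest transcripts.

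**Figure D1:**
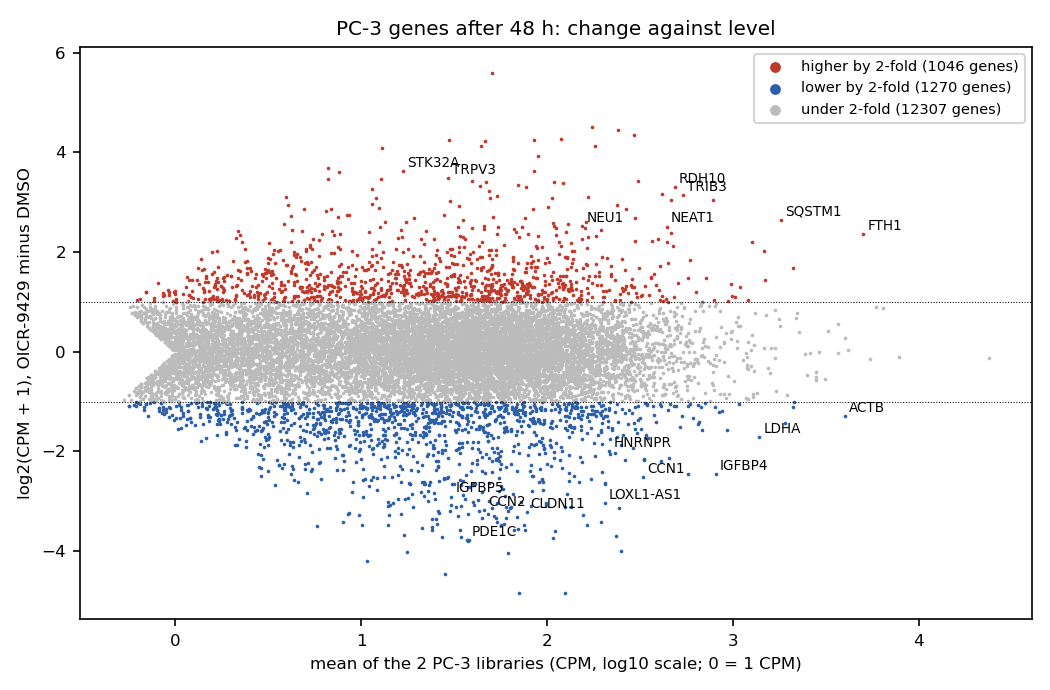
Each point is a counted PC-3 gene, with the mean CPM of the 2 libraries on the x axis (log10) and the difference of log2(CPM + 1), OICR-9429 minus DMSO, on the y axis; red marks 1046 genes higher and blue 1270 genes lower by 2-fold. FTH1 and SQSTM1 combine a large difference with a high level, and IGFBP4 and LOXL1-AS1 lie as far or farther on the lower side than FTH1 does on the higher.

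Genes of lysosomes and autophagy stood higher in the treated PC-3 library. Of 56 counted lysosomal hydrolase and membrane genes, 20 were higher and 1 was lower, with a median of 0.68. NEU1, a lysosomal sialidase, stood at 265 CPM with OICR-9429 and 45.1 CPM with DMSO, a ratio of 5.87 (5.54 to 6.23). CTNS, the cystine exporter of the lysosome, stood at 132 CPM with OICR-9429 and 25 CPM with DMSO. TPP1, a lysosomal peptidase, reached 493 CPM with OICR-9429 and 104 CPM with DMSO, and NPC1, which moves cholesterol out of lysosomes, reached 722 CPM with OICR-9429 and 157 CPM with DMSO. These 4 genes differed by more than 4-fold. CTSD, the aspartyl protease cathepsin D, stood at 206 CPM with OICR-9429 and 62.4 CPM with DMSO, a ratio of 3.30 (3.13 to 3.48). MCOLN1, the calcium channel mucolipin 1, stood at 129 CPM with OICR-9429 and 56.9 CPM with DMSO, and GAA, the acid alpha-glucosidase, at 421 CPM with OICR-9429 and 184 CPM with DMSO. GRN, the precursor of the lysosomal protein granulin and not on the list, stood at 2171 CPM with OICR-9429 and 797 CPM with DMSO. The exception was CTSC, a dipeptidyl peptidase that activates serine proteases of immune cells, at 106 CPM with OICR-9429 and 262 CPM with DMSO. In DU145 the same list had 0 genes higher and 3 lower, with a median of −0.20, where 0.999% of all 16120 counted genes were higher and 8.01% lower.

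The lysosomal list also holds genes that couple lysosomes to nutrient signalling, which are part of the counts above. RRAGC and RRAGD encode Rag GTPases that dock mTORC1 on the lysosome, and FLCN encodes folliculin, which regulates them. RRAGC stood at 54.9 CPM with OICR-9429 and 15.7 CPM with DMSO, RRAGD at 7.52 CPM with OICR-9429 and 1.23 CPM with DMSO and FLCN at 38.0 CPM with OICR-9429 and 11.3 CPM with DMSO. The factors TFEB and TFE3 themselves were under 2-fold, with TFEB at 3.38 CPM with OICR-9429 and 4.06 CPM with DMSO and TFE3 at 151 CPM with OICR-9429 and 145 CPM with DMSO. MITF, their relative, stood at 8.81 CPM with OICR-9429 and 14.9 CPM with DMSO. Of 18 counted subunits of the vacuolar proton pump, which acidifies lysosomes, 1 was higher and 0 were lower, with a median of 0.47. That 1 was ATP6V0D2, a tissue-restricted subunit, at 7.95 CPM with OICR-9429 and 0.171 CPM with DMSO. The 4 chloride transporters CLCN3, CLCN5, CLCN6 and CLCN7 of endosomes and lysosomes were on the list of ion channels, and each was higher by 2-fold. CLCN7, the lysosomal chloride exchanger, stood at 121 CPM with OICR-9429 and 48.5 CPM with DMSO and CLCN6, of late endosomes, at 72.4 CPM with OICR-9429 and 23.0 CPM with DMSO.

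Of 53 counted autophagy genes, 12 were higher and 0 lower, with a median of 0.41. WIPI1, a phosphoinositide binder of forming autophagosomes, stood at 81.4 CPM with OICR-9429 and 19.1 CPM with DMSO. OPTN, a cargo receptor for damaged mitochondria and bacteria, stood at 197 CPM with OICR-9429 and 51.9 CPM with DMSO, a ratio of 3.80 (3.59 to 4.03). TP53INP1, a stress-induced protein found in autophagosomes, stood at 68.1 CPM with OICR-9429 and 11.4 CPM with DMSO. PLEKHM1, an adaptor for fusion of autophagosomes with lysosomes, stood at 213 CPM with OICR-9429 and 61.0 CPM with DMSO. ULK1, the kinase that initiates the pathway, had 274 CPM with OICR-9429 and 128 CPM with DMSO, and ATG14, a subunit of the lipid kinase complex, had 141 CPM with OICR-9429 and 55.1 CPM with DMSO. MAP1LC3B, the lipidated autophagosome protein LC3B, stood at 136 CPM with OICR-9429 and 64.5 CPM with DMSO, and BNIP3, a mitophagy receptor, at 120.4 CPM with OICR-9429 and 177 CPM with DMSO.

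The promoters of lysosomal genes are known to hold a palindrome called the CLEAR element, which is the E-box CACGTG with GT directly before it and AC directly after it, so each CLEAR match is also an E-box match. Both were sought on both strands of 300 bases around each start, from 250 bases before it to 50 after it, in RefSeq promoters of GRCh38.p14, matched by gene symbol. This is not the hg19 build of the files, and the sequences were used through gene names alone. A promoter was matched for 38 of the 56 lysosomal genes and for 13 of the 20 higher ones, and a gene can have several. CACGTG was found in 43.8% (7 of 16) of promoters of the higher lysosomal genes, in 21.4% (12 of 56) of those of the whole lysosomal list and in 7.26% of all 35116 promoters. For autophagy genes the share was 6.67% (1 of 15) of promoters of the higher ones and 7.14% (4 of 56) of the list, and 0 of these held the CLEAR palindrome. The share was 10.9% for promoters of all higher genes, 8.94% for lower genes and 8.97% for genes under 2-fold. The share was also 35.4% (17 of 48) for ribosome biogenesis genes, of which 0 were higher. The CLEAR palindrome lay in 0.353% of all promoters, in 1.49% of those of higher genes and in 0.517% of those of lower genes. It lay in 0.582% of those of genes under 2-fold. For the lysosomal list the share was 5.36% (3 of 56), and 12.5% (2 of 16) for its higher genes. A match describes letters in a window, and binding was not measured. The promoters of 3 genes are shown 5′ to 3′, since GAA and MCOLN1 hold the full CLEAR element and NEU1, among the lysosomal genes with the largest difference, holds the E-box alone. Capitals mark the motif letters. They lie at chr17:80101331-80101630 (plus strand, GAA), chr19:7522374-7522673 (plus strand, MCOLN1) and chr6:31862772-31863071 (minus strand, NEU1).
GAA: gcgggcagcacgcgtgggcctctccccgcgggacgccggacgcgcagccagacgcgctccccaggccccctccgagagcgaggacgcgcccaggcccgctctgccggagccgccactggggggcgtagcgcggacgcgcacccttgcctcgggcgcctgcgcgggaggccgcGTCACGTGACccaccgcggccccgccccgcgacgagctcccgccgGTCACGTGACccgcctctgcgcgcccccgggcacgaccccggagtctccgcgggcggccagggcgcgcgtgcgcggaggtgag
MCOLN1: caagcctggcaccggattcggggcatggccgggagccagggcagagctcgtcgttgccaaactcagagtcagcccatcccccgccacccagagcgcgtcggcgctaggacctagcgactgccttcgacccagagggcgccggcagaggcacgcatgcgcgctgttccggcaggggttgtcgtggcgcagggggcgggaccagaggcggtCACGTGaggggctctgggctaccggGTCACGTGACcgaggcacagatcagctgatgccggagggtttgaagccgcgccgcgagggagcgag
NEU1: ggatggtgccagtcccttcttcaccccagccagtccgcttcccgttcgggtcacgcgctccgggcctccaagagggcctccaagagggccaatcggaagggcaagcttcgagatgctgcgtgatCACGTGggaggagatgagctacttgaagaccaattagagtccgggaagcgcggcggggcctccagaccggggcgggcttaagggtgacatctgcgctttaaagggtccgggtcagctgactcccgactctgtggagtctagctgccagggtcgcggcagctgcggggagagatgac

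The integrated stress response was the list with the highest median. Of 26 counted ATF4-type factors and targets, 17 were higher and 0 lower, with a median of 1.90. The secreted stress cytokine GDF15 stood at 563 CPM with OICR-9429 and 51.3 CPM with DMSO, a ratio of 11 (10.4 to 11.6). DDIT4, an inhibitor of mTORC1, stood at 86.6 CPM with OICR-9429 and 7.30 CPM with DMSO. NUPR1, a stress-induced nuclear protein, stood at 224 CPM with OICR-9429 and 20.4 CPM with DMSO. CHAC1, which degrades glutathione, stood at 90.7 CPM with OICR-9429 and 16.8 CPM with DMSO. SESN2, a leucine sensor upstream of mTORC1, stood at 115 CPM with OICR-9429 and 20.9 CPM with DMSO, and KLHL24, a ubiquitin ligase adaptor, at 133 CPM with OICR-9429 and 20.0 CPM with DMSO. ATF4 itself had 555 CPM with OICR-9429 and 219 CPM with DMSO, while its relative ATF5 had 59.3 CPM with OICR-9429 and 53.2 CPM with DMSO. The median of the same list in DU145 was −0.00, with 1 higher and 1 lower.

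Parts of amino acid supply differed in opposite directions. Of 23 counted amino acid transporters, 7 were higher and 1 lower, with a median of 0.43. SLC7A11, the cystine importer, stood at 190.3 CPM with OICR-9429 and 33.3 CPM with DMSO, a ratio of 5.72 (5.34 to 6.13). Its heavy-chain partner SLC3A2 stood at 332 CPM with OICR-9429 and 112 CPM with DMSO. SLC1A4, which carries neutral amino acids, stood at 82.4 CPM with OICR-9429 and 26.9 CPM with DMSO, and SLC7A6, an exchanger of basic and neutral amino acids, stood at 12.2 CPM with OICR-9429 and 27.7 CPM with DMSO. Of 28 counted enzymes of serine, glycine, proline and asparagine synthesis and one-carbon metabolism, 6 were higher and 5 lower, with a median of 0.19. PHGDH, the first enzyme of serine synthesis, stood at 282 CPM with OICR-9429 and 110.4 CPM with DMSO, and PSAT1, the next one, at 136 CPM with OICR-9429 and 59.0 CPM with DMSO. By contrast SHMT1, the cytosolic serine hydroxymethyltransferase, stood at 10.3 CPM with OICR-9429 and 33.8 CPM with DMSO, MTHFD1, a cytosolic folate enzyme, at 99.0 CPM with OICR-9429 and 235 CPM with DMSO, and GLDC, the glycine decarboxylase, at 2.16 CPM with OICR-9429 and 8.97 CPM with DMSO. Among 20 counted cytosolic aminoacyl-tRNA synthetases 1 was higher and 2 were lower, near the shares of 7.15% higher and 8.68% lower among all counted genes. Of these 20, 13 lay above 0, with a median of 0.20. AARS1, for alanine, stood at 622 CPM with OICR-9429 and 188 CPM with DMSO, and FARSB, a subunit of the enzyme for phenylalanine, at 49.1 CPM with OICR-9429 and 134 CPM with DMSO.

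The composite site of C/EBP and ATF factors, sought as TGATGNAA on both strands, lay in 20.0% (5 of 25) of promoters of the higher genes on the stress response list. The share was 12.8% (5 of 39) for the whole list and 3.62% for all promoters. It was 3.77% for promoters of all higher genes, 1.62% for lower genes and 1.97% for genes under 2-fold. The list was put together from ATF4-type factors and targets, and binding was not measured. A promoter was matched for 15 of the 17 higher genes. The 5 genes with a match to the site were ASNS, ATF3, CEBPG, CHAC1 and JDP2. CHAC1 and ASNS are shown because both are well-known ATF4 targets. They lie at chr15:40953221-40953520 (plus strand, CHAC1) and chr7:97872359-97872658 (minus strand, ASNS) in GRCh38.p14, from RefSeq, with the motif in capitals, which in CHAC1 stands on the opposite strand and so reads in reverse complement. ASNS, asparagine synthetase, stood at 6.48 CPM with OICR-9429 and 1.09 CPM with DMSO.
CHAC1: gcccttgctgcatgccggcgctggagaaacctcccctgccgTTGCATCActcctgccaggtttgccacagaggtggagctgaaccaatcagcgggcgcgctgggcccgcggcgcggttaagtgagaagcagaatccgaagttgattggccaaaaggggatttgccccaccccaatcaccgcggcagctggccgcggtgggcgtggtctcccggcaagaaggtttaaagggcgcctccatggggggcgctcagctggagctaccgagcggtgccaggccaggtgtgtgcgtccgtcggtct
ASNS: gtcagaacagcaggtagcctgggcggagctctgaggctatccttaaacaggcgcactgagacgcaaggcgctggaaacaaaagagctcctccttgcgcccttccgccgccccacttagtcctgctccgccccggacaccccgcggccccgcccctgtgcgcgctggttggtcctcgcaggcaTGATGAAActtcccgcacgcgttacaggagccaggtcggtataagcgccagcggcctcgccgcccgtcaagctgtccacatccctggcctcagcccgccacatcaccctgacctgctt

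**Figure D2:**
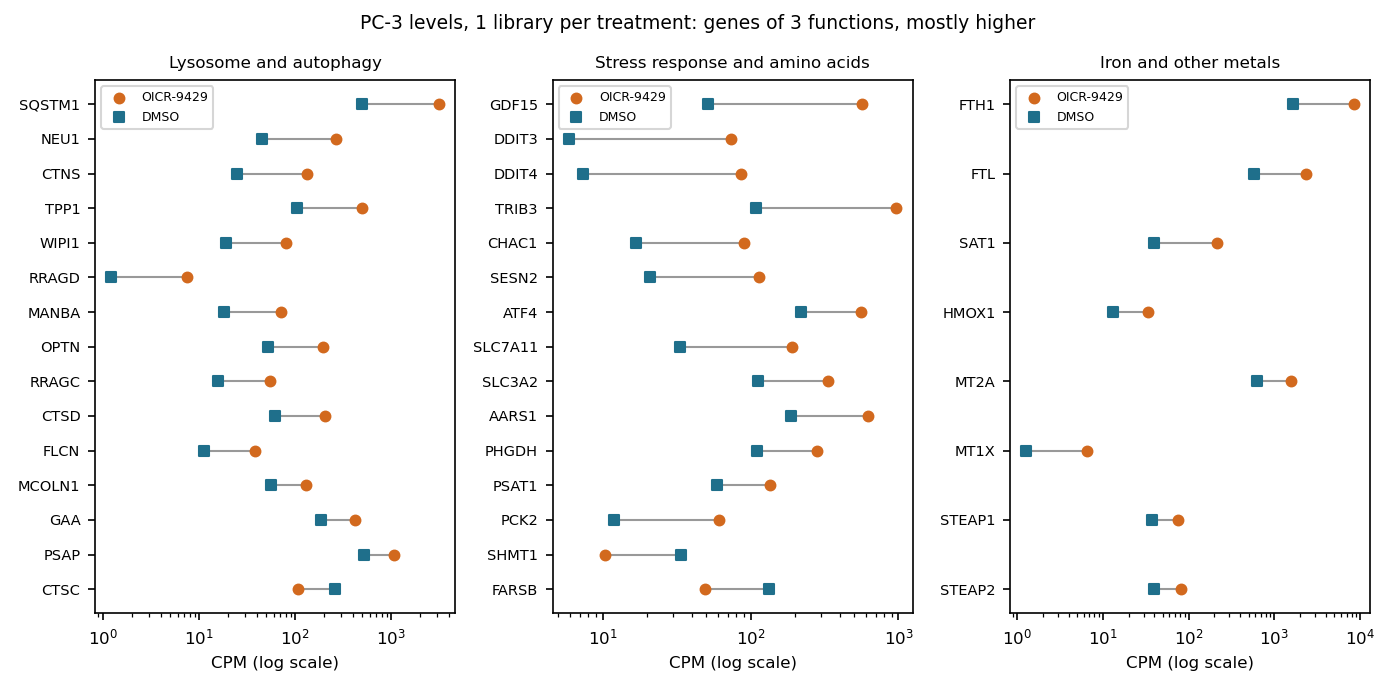
CPM on a log axis in the PC-3 library with OICR-9429 (orange circles) and with DMSO (blue squares), 1 library each, for genes chosen after their values were seen. Most genes of lysosomes, the integrated stress response with amino acid supply, and metal handling lie to the right with OICR-9429, while CTSC, SHMT1 and FARSB lie to the left.

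Stress genes of other compartments differed in part. Of 31 counted endoplasmic reticulum chaperones and unfolded protein response genes, 6 were higher and 0 lower, with a median of 0.44. HERPUD1, which takes part in degradation at the endoplasmic reticulum, stood at 141 CPM with OICR-9429 and 38.6 CPM with DMSO. HSPA5, the chaperone BiP, stood at 1408 CPM with OICR-9429 and 656 CPM with DMSO, and XBP1, a transcription factor of the response, at 177 CPM with OICR-9429 and 67.1 CPM with DMSO. In the cytosol 4 of 28 counted heat shock genes were higher and 3 lower, with a median of −0.40. HSPA1B and HSPA1A are near-identical copies whose reads can be shared, and stood at 101 CPM with OICR-9429 and 31.1 CPM with DMSO and at 110.3 CPM with OICR-9429 and 46.1 CPM with DMSO. HSPA6, an inducible chaperone that is not on that list, stood at 24.2 CPM with OICR-9429 and 1.30 CPM with DMSO. HSP90AA1, the inducible cytosolic HSP90, stood at 1026 CPM with OICR-9429 and 2779 CPM with DMSO and HSPB1, a small heat shock protein, at 115 CPM with OICR-9429 and 333 CPM with DMSO.

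Both ferritin chains and part of the antioxidant genes stood higher. Of 26 counted genes of iron handling and ferroptosis, 7 were higher and 0 lower, with a median of 0.46. FTH1, the ferritin heavy chain, stood at 8426 CPM with OICR-9429 and 1647 CPM with DMSO, and FTL, the light chain, at 2362 CPM with OICR-9429 and 582 CPM with DMSO. TFRC, the transferrin receptor that imports iron, stood at 359.7 CPM with OICR-9429 and 659 CPM with DMSO, which is under 2-fold. SAT1, an enzyme of polyamine breakdown, stood at 215 CPM with OICR-9429 and 40.0 CPM with DMSO, a ratio of 5.37 (5.04 to 5.72). Of 34 counted NRF2-type genes 8 were higher and 0 lower, with a median of 0.53. GCLC, the catalytic subunit for glutathione synthesis, stood at 166 CPM with OICR-9429 and 59.9 CPM with DMSO, and its partner GCLM at 41.3 CPM with OICR-9429 and 43.2 CPM with DMSO. MAFG, a small MAF partner of NRF2, stood at 195 CPM with OICR-9429 and 61.3 CPM with DMSO, and AKR1C1, an aldo-keto reductase with close paralogues, at 18.5 CPM with OICR-9429 and 5.22 CPM with DMSO. SOD2, the mitochondrial superoxide dismutase, stood at 1399 CPM with OICR-9429 and 169.9 CPM with DMSO. Among metallothioneins, MT2A stood at 1557 CPM with OICR-9429 and 629.5 CPM with DMSO and MT1X at 6.62 CPM with OICR-9429 and 1.30 CPM with DMSO, with reads that can be shared among near-identical copies.

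Lipid genes split by branch. Of 33 counted genes of cholesterol synthesis and uptake, 15 were higher and 2 lower, with a median of 0.85. STARD4, a carrier of sterols within the cell, stood at 41.8 CPM with OICR-9429 and 10.5 CPM with DMSO. The lower ones were ABCA1, the cholesterol exporter, at 1.44 CPM with OICR-9429 and 4.61 CPM with DMSO and TMEM97, a sterol-regulated membrane protein, at 14.7 CPM with OICR-9429 and 34.7 CPM with DMSO. Of 29 counted genes of fatty acid and glycerolipid synthesis 5 were higher and 0 lower. PCYT2, an enzyme of phosphatidylethanolamine synthesis, stood at 82.3 CPM with OICR-9429 and 26.8 CPM with DMSO and LPIN2, a phosphatidate phosphatase, at 229.9 CPM with OICR-9429 and 81.3 CPM with DMSO. Among 34 counted genes of fat oxidation, lipases and lipid droplets, 4 were higher and 5 lower. PPARA, a nuclear receptor of fatty acid oxidation, stood at 69.5 CPM with OICR-9429 and 20.6 CPM with DMSO, while FABP5, a fatty acid carrier, stood at 25.2 CPM with OICR-9429 and 59.4 CPM with DMSO and ACAA2, a mitochondrial thiolase, at 2.63 CPM with OICR-9429 and 10.1 CPM with DMSO. In DU145 the cholesterol list had 22 of 33 counted genes higher and 1 lower, with a median of 1.27. Fatty acid and glycerolipid synthesis had 6 of 32 higher and 0 lower there, where 0.999% of all counted genes were higher.

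Glycolytic enzymes stood lower in treated PC-3. Of 37 counted glycolysis and hypoxia genes, 8 were lower and 1 higher, with a median of −0.40. LDHA, lactate dehydrogenase A, stood at 652 CPM with OICR-9429 and 2126 CPM with DMSO, a ratio of 0.306 (0.301 to 0.312). PGAM1, phosphoglycerate mutase, stood at 147 CPM with OICR-9429 and 399 CPM with DMSO, and PGK1, phosphoglycerate kinase, at 358 CPM with OICR-9429 and 949 CPM with DMSO. ENO1, an enolase, had 1327 CPM with OICR-9429 and 2869 CPM with DMSO, and PKM, pyruvate kinase, had 1401 CPM with OICR-9429 and 2835 CPM with DMSO. The higher member was NDRG1, a hypoxia- and stress-responsive gene. In DU145 the same list had 6 genes higher and 0 lower, with a median of 0.35. Of 30 counted genes of pyruvate entry and the tricarboxylic acid cycle, 2 were higher and 4 lower. DLAT, a subunit of pyruvate dehydrogenase, stood at 41.4 CPM with OICR-9429 and 119 CPM with DMSO and FH, fumarate hydratase, at 78.5 CPM with OICR-9429 and 199.8 CPM with DMSO. PCK2, the mitochondrial phosphoenolpyruvate carboxykinase, stood higher at 60.8 CPM with OICR-9429 and 11.9 CPM with DMSO. Of the 13 mitochondrially encoded mRNAs 0 differed by 2-fold, with a median of −0.19. Among 77 counted mitochondrial ribosomal proteins 0 were higher and 6 lower, with a median of −0.39. The part lower was near the share of 8.68% among all counted genes.

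The machinery for making ribosomes stood lower, while ribosomal protein mRNAs as a group did not. Of 48 counted ribosome biogenesis genes, 18 were lower and 0 higher, with a median of −0.83. NOP58, a core protein of box C/D snoRNPs, stood at 50.5 CPM with OICR-9429 and 139 CPM with DMSO, a ratio of 0.362 (0.340 to 0.385). BOP1, a processing factor of the large subunit, stood at 94.3 CPM with OICR-9429 and 236 CPM with DMSO, and MRTO4, an assembly factor of the large subunit, at 40.8 CPM with OICR-9429 and 98.1 CPM with DMSO. FBL, the methyltransferase fibrillarin, was under 2-fold at 97.0 CPM with OICR-9429 and 125 CPM with DMSO. The 83 counted cytosolic ribosomal protein genes, a list chosen after values were seen, had 0 higher and 2 lower, and 64 of them lay above 0, with a median of 0.24. In DU145 0 of 85 were higher and 38 lower, with a median of −0.91. RPL28, of the large subunit, stood at 869 CPM with OICR-9429 and 459 CPM with DMSO, and RPS27, of the small subunit, at 335 CPM with OICR-9429 and 175 CPM with DMSO. Reads of ribosomal protein genes can be shared with their many pseudogenes. EEF1A1, the main elongation factor, stood at 8309 CPM with OICR-9429 and 4532 CPM with DMSO. Of 51 counted translation factors 2 were higher and 3 lower, below the shares of 7.15% higher and 8.68% lower among all counted genes. EIF1, of start codon selection, stood at 446 CPM with OICR-9429 and 203 CPM with DMSO and EIF4B, a helicase cofactor, at 591 CPM with OICR-9429 and 283 CPM with DMSO. EIF5A, of elongation, stood at 85.7 CPM with OICR-9429 and 219 CPM with DMSO.

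Splicing factors stood lower in PC-3. Of 74 counted pre-mRNA splicing genes, 22 were lower and 1 higher, with a median of −0.72, and in DU145 2 were lower and 0 higher, with a median of −0.05. HNRNPR, a nuclear ribonucleoprotein, stood at 86.2 CPM with OICR-9429 and 348 CPM with DMSO, a ratio of 0.248 (0.237 to 0.259). SRSF3, a serine- and arginine-rich splicing factor, stood at 89.2 CPM with OICR-9429 and 285 CPM with DMSO, and HNRNPA2B1, another ribonucleoprotein, at 344 CPM with OICR-9429 and 1026 CPM with DMSO. SNRPD1, a core protein of spliceosomal snRNPs, stood at 23.0 CPM with OICR-9429 and 73.7 CPM with DMSO. SF3B1, of the U2 snRNP, was nearly level at 451 CPM with OICR-9429 and 412 CPM with DMSO. ESRP1, an epithelial splicing regulator, was the higher one, at 9.25 CPM with OICR-9429 and 3.99 CPM with DMSO. The CLK kinases that phosphorylate splicing factors were under 2-fold, with CLK1 at 86.4 CPM with OICR-9429 and 56.3 CPM with DMSO.

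Of 40 counted genes of nucleotide and polyamine synthesis, 8 were lower and 3 higher, with a median of −0.76. PAICS, a purine synthesis enzyme, stood at 162 CPM with OICR-9429 and 540.0 CPM with DMSO, a ratio of 0.299 (0.289 to 0.309). CTPS1, which makes CTP, stood at 41.3 CPM with OICR-9429 and 128 CPM with DMSO, and PRPS1, which makes the ribose donor, at 38.5 CPM with OICR-9429 and 100.2 CPM with DMSO. The higher ones included enzymes of breakdown or salvage, with TYMP, thymidine phosphorylase, at 50.6 CPM with OICR-9429 and 12.7 CPM with DMSO and UPP1, uridine phosphorylase, at 251 CPM with OICR-9429 and 73.6 CPM with DMSO. Of 40 counted proteasome and ubiquitin genes 4 were lower and 1 higher, near the share of 8.68% lower among all counted genes, with a median of −0.49. PSMD2, a subunit of the regulatory particle, stood at 345 CPM with OICR-9429 and 874 CPM with DMSO. NFE2L1, a transcription factor of proteasome genes, stood higher at 889 CPM with OICR-9429 and 384 CPM with DMSO.

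**Figure D3:**
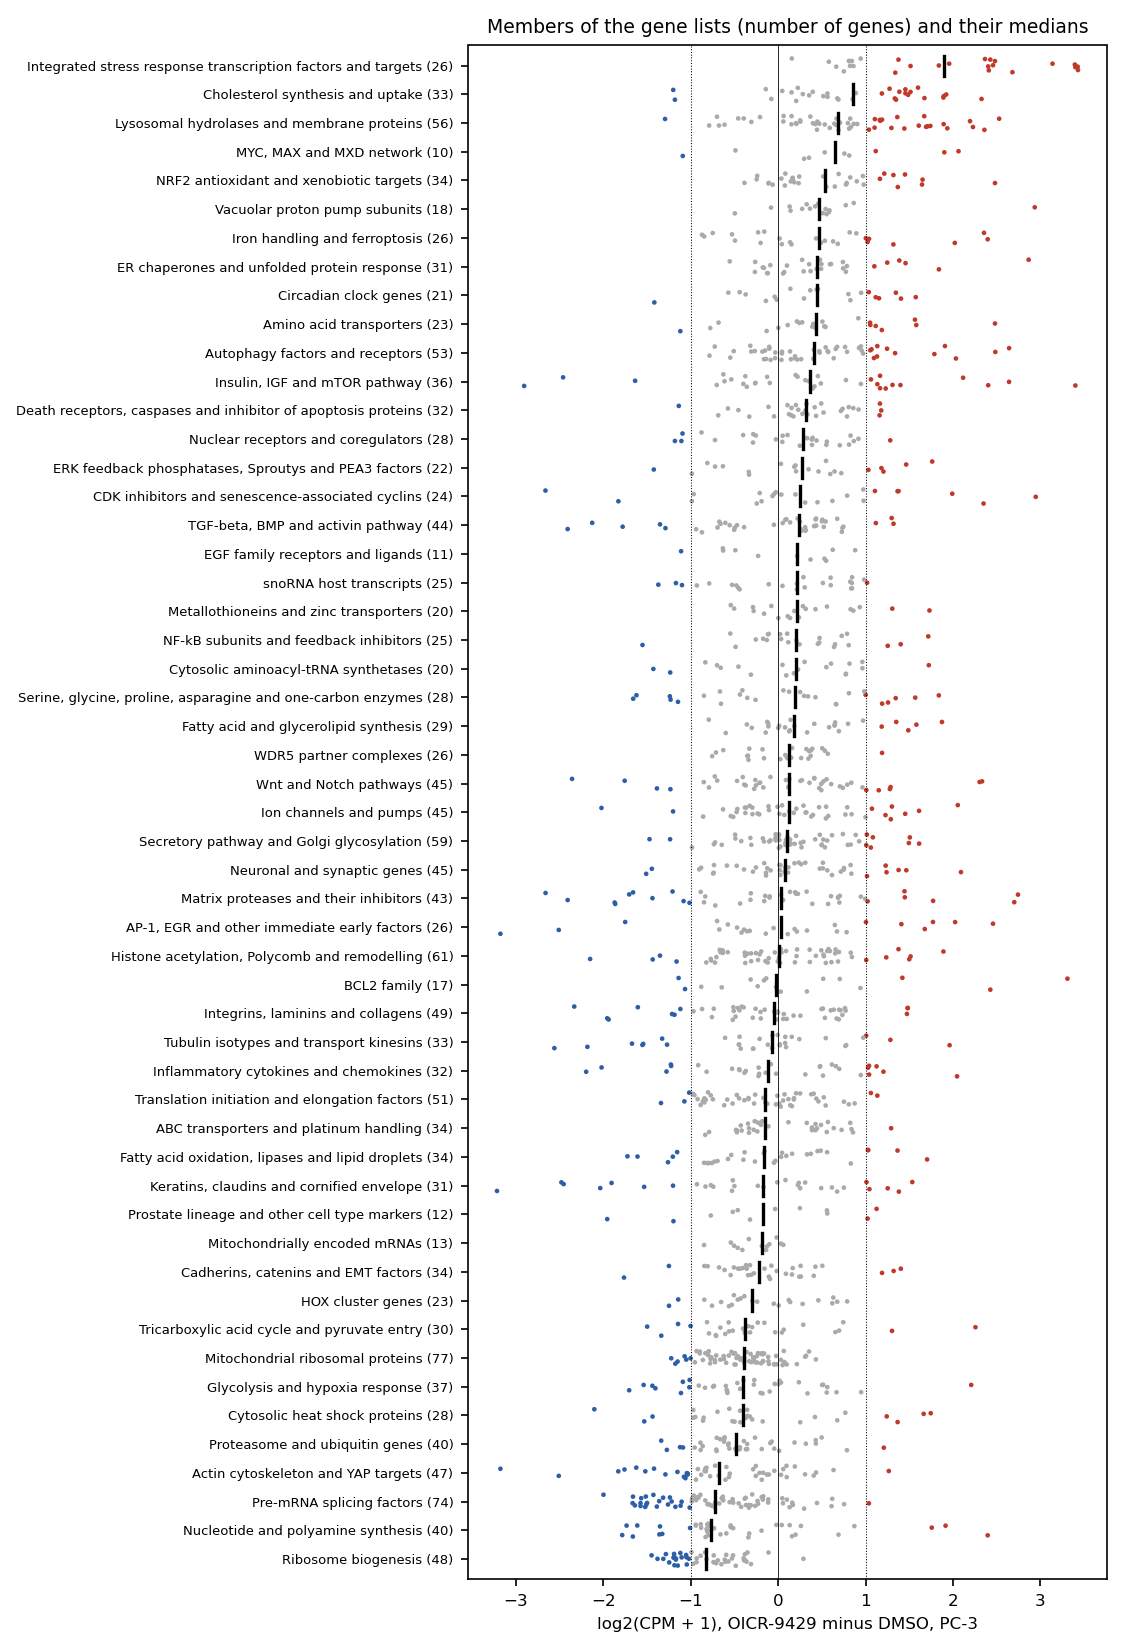
Each point is a counted gene of a functional list, placed by its difference of log2(CPM + 1), OICR-9429 minus DMSO, in PC-3; black bars are list medians and dotted lines the 2-fold limits. Medians of the lists drawn run from 1.90 for the integrated stress response to −0.83 for ribosome biogenesis, lists chosen after values were seen are not drawn, and most lists hold genes on both sides of 0.

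Growth control genes included several strong differences. Of 24 counted CDK inhibitors and senescence-associated cyclins 6 were higher and 2 lower. CDKN1A, the CDK inhibitor p21, stood at 188 CPM with OICR-9429 and 36.1 CPM with DMSO, a ratio of 5.21 (4.87 to 5.57). CDKN1C, the CDK inhibitor p57, stood at 13.2 CPM with OICR-9429 and 4.47 CPM with DMSO, and CCNG2, an atypical cyclin of arrested cells, at 46.9 CPM with OICR-9429 and 11.1 CPM with DMSO. RBL1, the retinoblastoma relative p107, stood at 7.91 CPM with OICR-9429 and 55.4 CPM with DMSO, and CCND1, cyclin D1, at 507 CPM with OICR-9429 and 1007 CPM with DMSO, just under 2-fold. Of 10 counted genes of the MYC network 3 were higher and 1 lower. The repressor partners MXD1 and MXI1 stood at 49.2 CPM with OICR-9429 and 11 CPM with DMSO and at 69.6 CPM with OICR-9429 and 17.9 CPM with DMSO. MNT, another repressor partner, stood at 63.3 CPM with OICR-9429 and 28.7 CPM with DMSO. The lower one was MXD3, of the same family as MXD1, at 6.22 CPM with OICR-9429 and 14.4 CPM with DMSO. MYC itself stood at 186 CPM with OICR-9429 and 262 CPM with DMSO. SKP2, a ubiquitin ligase subunit that degrades CDK inhibitors, stood at 21.0 CPM with OICR-9429 and 75.7 CPM with DMSO. In DU145 the CDK inhibitor list had 2 higher and 2 lower of 25 counted genes, and the MYC network 1 higher and 1 lower of 10. CDKN1A was among the higher ones there, at 268 CPM with OICR-9429 and 91.3 CPM with DMSO. MXD1 was the other line's higher gene of the network, at 63.0 CPM with OICR-9429 and 22.5 CPM with DMSO.

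Among 17 counted BCL2 family genes 3 were higher and 2 lower. BBC3, the BH3-only protein PUMA, stood at 12.4 CPM with OICR-9429 and 1.5 CPM with DMSO, a ratio of 8.29 (6.05 to 11.6). BCL2L1, the survival protein BCL-XL, stood at 129.7 CPM with OICR-9429 and 273 CPM with DMSO and BCL2A1, another survival protein, at 10.0 CPM with OICR-9429 and 23.2 CPM with DMSO. MCL1 was nearly level at 291 CPM with OICR-9429 and 296 CPM with DMSO. Of 32 counted death receptor, caspase and inhibitor of apoptosis genes 3 were higher and 1 lower, the higher ones being GSDMB, CASP4 and XIAP. XIAP, a caspase inhibitor, stood at 124 CPM with OICR-9429 and 55.0 CPM with DMSO, and CYCS, cytochrome c, at 90.1 CPM with OICR-9429 and 199 CPM with DMSO.

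The insulin, IGF and mTOR list held 11 higher and 3 lower of 36 counted genes, with a median of 0.36, and it shares DDIT4 and SESN2 with the stress response. IRS2, an insulin receptor substrate, stood at 61.8 CPM with OICR-9429 and 9.07 CPM with DMSO, a ratio of 6.81 (5.99 to 7.78). TSC1, a brake on mTORC1, stood at 85.8 CPM with OICR-9429 and 36.0 CPM with DMSO, and RICTOR, of mTORC2, at 175 CPM with OICR-9429 and 70.0 CPM with DMSO, while RPTOR, of mTORC1, stood at 87.4 CPM with OICR-9429 and 143 CPM with DMSO. The lower ones were binding proteins of insulin-like growth factors, with IGFBP4 at 248 CPM with OICR-9429 and 1371 CPM with DMSO, IGFBP3 at 79.0 CPM with OICR-9429 and 248 CPM with DMSO and IGFBP5 at 6.44 CPM with OICR-9429 and 54.8 CPM with DMSO.

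Immediate early and signalling genes went both ways. Of 26 counted AP-1, EGR and related genes, 6 were higher and 3 lower. JUNB stood at 219 CPM with OICR-9429 and 53.1 CPM with DMSO, JUND at 127 CPM with OICR-9429 and 36.5 CPM with DMSO and KLF4, a zinc finger factor of epithelia, at 67.7 CPM with OICR-9429 and 20.5 CPM with DMSO, while JUN stood at 113 CPM with OICR-9429 and 169.7 CPM with DMSO. Among 22 counted ERK feedback genes 5 were higher and 1 lower. DUSP5, a nuclear ERK phosphatase, stood at 419 CPM with OICR-9429 and 151 CPM with DMSO and ETV4, a PEA3 factor, at 52.2 CPM with OICR-9429 and 142 CPM with DMSO. Of 45 counted Wnt and Notch genes 6 were higher and 4 lower. HEY1, a Notch target repressor, stood at 119 CPM with OICR-9429 and 23.3 CPM with DMSO, and DLL4, a Notch ligand, at 12.6 CPM with OICR-9429 and 1.71 CPM with DMSO, while WNT3, a Wnt ligand, stood at 2.66 CPM with OICR-9429 and 17.8 CPM with DMSO. Among 44 counted TGF-beta, BMP and activin genes 3 were higher and 5 lower, near the shares of 7.15% higher and 8.68% lower among all counted genes. The lower ones included INHBB, an activin subunit, at 168 CPM with OICR-9429 and 738 CPM with DMSO. Of 11 counted EGF family genes 0 were higher and 1 was lower. That was the ligand HBEGF, at 35.4 CPM with OICR-9429 and 77.5 CPM with DMSO, while the receptor EGFR stood at 712 CPM with OICR-9429 and 386 CPM with DMSO.

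Cytokines and chemokines divided as well. Of 32 counted genes 6 were higher and 5 lower. CXCL8, the neutrophil attractant interleukin 8, stood at 442 CPM with OICR-9429 and 202 CPM with DMSO, and IL6, a pleiotropic cytokine, at 74.4 CPM with OICR-9429 and 31.7 CPM with DMSO. Among related attractants, 3 stood lower, with CXCL1 at 146 CPM with OICR-9429 and 673 CPM with DMSO, CXCL5 at 170.5 CPM with OICR-9429 and 399.7 CPM with DMSO and CXCL6 at 42.8 CPM with OICR-9429 and 177 CPM with DMSO. IL1RN, the natural antagonist of the interleukin 1 receptor, stood at 6.51 CPM with OICR-9429 and 0.819 CPM with DMSO. Of 25 counted NF-kB genes 3 were higher and 1 lower: RELB, a subunit of the noncanonical pathway, stood at 78.5 CPM with OICR-9429 and 23.2 CPM with DMSO, BCL3 at 56.5 CPM with OICR-9429 and 20.8 CPM with DMSO and TRAF1 at 5.94 CPM with OICR-9429 and 1.91 CPM with DMSO, against MAP3K14, the kinase NIK of that pathway, at 20.8 CPM with OICR-9429 and 62.8 CPM with DMSO. IL7R, a cytokine receptor chain, stood at 12.4 CPM with OICR-9429 and 115 CPM with DMSO, a ratio of 0.108 (0.0963 to 0.121).

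Actin and YAP-target genes stood lower in treated PC-3. Of 47 counted genes 14 were lower and 1 higher, with a median of −0.68, whereas in DU145 0 differed by 2-fold and the median was 0.08. CCN2, a matricellular protein and YAP target, stood at 8.38 CPM with OICR-9429 and 83.9 CPM with DMSO, a ratio of 0.0999 (0.0870 to 0.114). CCN1, a related YAP target, stood at 97.3 CPM with OICR-9429 and 559 CPM with DMSO. Both genes are also on the immediate early list. CNN3, calponin 3, stood at 48.3 CPM with OICR-9429 and 174 CPM with DMSO, and CORO1C, a coronin, at 149.5 CPM with OICR-9429 and 463 CPM with DMSO. ACTB, beta-actin, which is often used as a normaliser, stood at 2326 CPM with OICR-9429 and 5690.4 CPM with DMSO. YAP1 itself was higher but under 2-fold, at 189 CPM with OICR-9429 and 142 CPM with DMSO. TAGLN, transgelin, was the higher one, at 5.50 CPM with OICR-9429 and 1.71 CPM with DMSO. CAV1, caveolin 1, stood at 119.9 CPM with OICR-9429 and 546 CPM with DMSO, and RND3, a small GTPase that opposes actin contraction, at 654 CPM with OICR-9429 and 135 CPM with DMSO.

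Of 49 counted integrin, laminin and collagen genes, 3 were higher and 7 lower. LAMA3, a laminin chain of epithelial basement membranes, stood at 1052 CPM with OICR-9429 and 378 CPM with DMSO, and ITGA2, the collagen receptor subunit, at 536 CPM with OICR-9429 and 192 CPM with DMSO. The lower ones included collagen chains, with COL5A2 at 39.4 CPM with OICR-9429 and 202 CPM with DMSO, COL6A3 at 119 CPM with OICR-9429 and 461 CPM with DMSO and COL12A1 at 66.6 CPM with OICR-9429 and 205 CPM with DMSO. Of 43 counted matrix proteases and inhibitors 6 were higher and 10 lower. MMP13, a collagenase, stood at 15.3 CPM with OICR-9429 and 1.43 CPM with DMSO, and MMP1 at 13.7 CPM with OICR-9429 and 1.26 CPM with DMSO. TIMP1, an inhibitor of metalloproteinases, stood at 690.2 CPM with OICR-9429 and 201 CPM with DMSO. LOXL4, a lysyl oxidase relative, stood at 4.28 CPM with OICR-9429 and 32.4 CPM with DMSO, and PLAU, urokinase, at 505 CPM with OICR-9429 and 1169 CPM with DMSO. HAS2, a hyaluronan synthase, stood at 4.32 CPM with OICR-9429 and 31.8 CPM with DMSO.

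**Figure D4:**
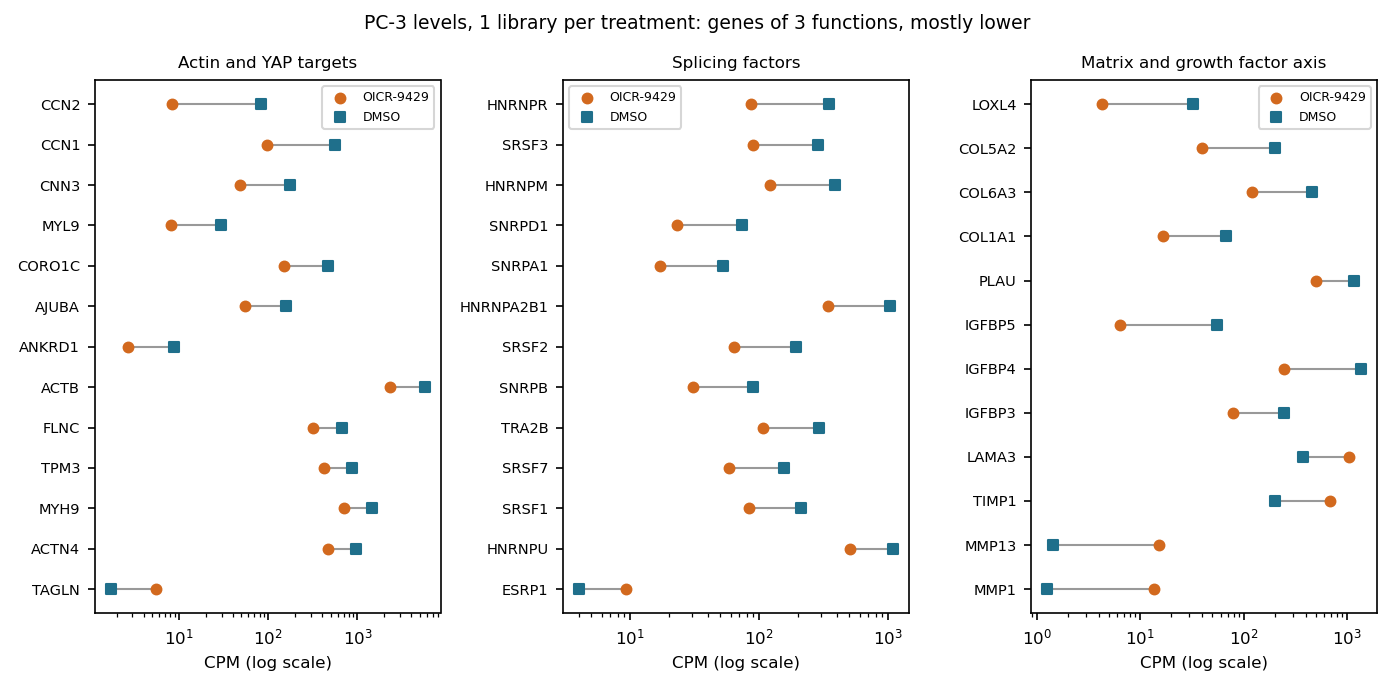
CPM on a log axis in the PC-3 library with OICR-9429 (orange circles) and with DMSO (blue squares), 1 library each, for genes chosen after their values were seen. All but TAGLN of the actin panel and all but ESRP1 of the splicing panel lie to the left with OICR-9429, while LAMA3, TIMP1, MMP13 and MMP1 lie to the right.

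Among junction and keratin genes 5 were higher and 7 lower of 31 counted. CLDN11, a claudin, stood at 14.3 CPM with OICR-9429 and 141 CPM with DMSO, a ratio of 0.101 (0.0911 to 0.112). KRT7, a simple epithelial keratin, stood at 90.6 CPM with OICR-9429 and 375 CPM with DMSO and TGM2, a transglutaminase, at 176 CPM with OICR-9429 and 967 CPM with DMSO. PPL, the desmosome-linked periplakin, stood at 27.5 CPM with OICR-9429 and 8.84 CPM with DMSO, and OCLN, occludin of tight junctions, at 22.7 CPM with OICR-9429 and 8.12 CPM with DMSO. In the list of 34 counted cadherins, catenins and transition factors 3 were higher and 2 lower. DSP, desmoplakin, stood at 483 CPM with OICR-9429 and 193 CPM with DMSO, and GRHL1, an epithelial transcription factor, at 11.7 CPM with OICR-9429 and 3.79 CPM with DMSO. Of 33 counted tubulin isotypes and transport kinesins 3 were higher and 7 lower, with TUBA4A at 17.7 CPM with OICR-9429 and 84.1 CPM with DMSO and TUBB4B at 163 CPM with OICR-9429 and 478 CPM with DMSO, although tubulin genes have close copies.

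Chromatin genes differed little as a group. Among 26 counted members of WDR5 complexes 1 was higher and 0 lower, with a median of 0.13. That was WDR5B, a close relative of WDR5, at 28.6 CPM with OICR-9429 and 12.0 CPM with DMSO. HCFC1, a transcription cofactor that binds WDR5, stood at 214 CPM with OICR-9429 and 361 CPM with DMSO. Of 23 counted HOX genes, a family classically regulated by MLL, 0 were higher and 2 lower, with a median of −0.30. The part lower was near the share of 8.68% among all counted genes. HOXA9 was level at 48.2 CPM with OICR-9429 and 48.1 CPM with DMSO, and HOXC8 stood at 4.64 CPM with OICR-9429 and 11.5 CPM with DMSO. Among 61 counted genes of histone acetylation, Polycomb and remodelling 6 were higher and 4 lower. HDAC5 and HDAC9, class II deacetylases, stood at 203 CPM with OICR-9429 and 54.1 CPM with DMSO and at 124 CPM with OICR-9429 and 43.3 CPM with DMSO, and EZH1, a Polycomb methyltransferase of resting cells, at 45.8 CPM with OICR-9429 and 15.4 CPM with DMSO. SIRT1, a deacetylase, stood at 166 CPM with OICR-9429 and 63.4 CPM with DMSO. HMGN5, a nucleosome-binding protein, stood at 4.10 CPM with OICR-9429 and 21.7 CPM with DMSO.

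Of 21 counted circadian clock genes 6 were higher and 1 lower, with a median of 0.44. NFIL3, a repressor of clock output, stood at 36.3 CPM with OICR-9429 and 11.5 CPM with DMSO, and NR1D2, the heme receptor REV-ERB beta, at 209 CPM with OICR-9429 and 78.3 CPM with DMSO. TEF and DBP, output factors, stood at 24.8 CPM with OICR-9429 and 9.14 CPM with DMSO and at 8.63 CPM with OICR-9429 and 3.45 CPM with DMSO. CLOCK was under 2-fold, at 119 CPM with OICR-9429 and 162 CPM with DMSO.

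Lists of secretion, channels and neuronal genes had medians near 0, with more members higher than lower by 2-fold. Their parts higher lay above the share of 7.15% among all counted genes, and their parts lower below 8.68%. Of 59 counted genes of the secretory pathway and Golgi glycosylation, 7 were higher and 2 lower, with a median of 0.11. MGAT4B and MGAT5, which add branches to N-glycans, stood apart in opposite directions, with MGAT4B at 534 CPM with OICR-9429 and 189 CPM with DMSO and MGAT5 at 69.9 CPM with OICR-9429 and 196 CPM with DMSO. Of 45 counted ion channels and pumps 7 were higher and 2 lower. The inward rectifier potassium channel KCNJ2 stood at 9.39 CPM with OICR-9429 and 1.5 CPM with DMSO, while ANO1, a calcium-activated chloride channel, stood at 38.2 CPM with OICR-9429 and 158 CPM with DMSO. Of 34 counted ABC transporters and platinum handling genes 1 was higher and 0 lower, and that was ABCA5, at 47.6 CPM with OICR-9429 and 18.8 CPM with DMSO. Of 45 counted neuronal and synaptic genes 6 were higher and 2 lower. STX3, a syntaxin of apical membranes, stood at 143 CPM with OICR-9429 and 32.8 CPM with DMSO, while EPHA2, an ephrin receptor, stood at 347 CPM with OICR-9429 and 947 CPM with DMSO. Among 28 counted nuclear receptors and coregulators 1 was higher and 3 lower. The coactivator NCOA3 was the higher one, at 234 CPM with OICR-9429 and 95.7 CPM with DMSO. TXNIP, an arrestin that limits glucose uptake, stood at 32.0 CPM with OICR-9429 and 96.4 CPM with DMSO, and its relative ARRDC3 at 75.0 CPM with OICR-9429 and 32.5 CPM with DMSO.

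Several large differences lay outside every list, as did GRN, HSPA6, SOD2, SKP2, IL7R, CAV1, RND3 and HAS2 above. STK32A, a little-studied kinase, stood at 32.0 CPM with OICR-9429 and 1.67 CPM with DMSO, a ratio of 19.1 (14.3 to 26.1). TRPV3, a heat-sensitive calcium channel, stood at 54.7 CPM with OICR-9429 and 3.96 CPM with DMSO. RDH10, which makes retinal from retinol, stood at 883 CPM with OICR-9429 and 89.0 CPM with DMSO, while CRABP2, a carrier of retinoic acid, stood at 8.02 CPM with OICR-9429 and 72.2 CPM with DMSO. PRL, the hormone prolactin, stood at 7.88 CPM with OICR-9429 and 0.0341 CPM with DMSO. With DMSO it had 1 fragment, and the ratio of 231 spans 41.0 to 9162. CREBRF, a regulator of the stress factor CREB3, stood at 88.8 CPM with OICR-9429 and 9.62 CPM with DMSO. LCN2, an iron-sequestering secreted protein, stood at 329.8 CPM with OICR-9429 and 60.3 CPM with DMSO, and ELF3, an epithelial ETS factor, at 113 CPM with OICR-9429 and 19.8 CPM with DMSO. On the lower side PDE1C, a calmodulin-dependent phosphodiesterase, stood at 4.21 CPM with OICR-9429 and 70.5 CPM with DMSO, a ratio of 0.0597 (0.0491 to 0.0720). TNS4, a focal adhesion protein, stood at 4.35 CPM with OICR-9429 and 71.8 CPM with DMSO. GRPR, the receptor of gastrin-releasing peptide, stood at 3.17 CPM with OICR-9429 and 34.9 CPM with DMSO, GBX2, a homeobox factor, at 15.1 CPM with OICR-9429 and 130.0 CPM with DMSO and APLN, the peptide apelin, at 2.30 CPM with OICR-9429 and 25.6 CPM with DMSO.

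Long non-coding RNAs differed about as often as all genes. Of 1313 counted, 100 (7.62%) were higher and 96 (7.31%) lower. NEAT1, the scaffold of paraspeckles, stood at 751 CPM with OICR-9429 and 131 CPM with DMSO, a ratio of 5.73 (5.54 to 5.94). GAS5, a host of snoRNAs that is known to build up in growth arrest, stood at 79.3 CPM with OICR-9429 and 38.7 CPM with DMSO. DLGAP1-AS2 stood at 78.5 CPM with OICR-9429 and 12.8 CPM with DMSO. LOXL1-AS1, an antisense transcript, stood at 43.6 CPM with OICR-9429 and 364 CPM with DMSO. No source used here states the strand setting of the counting, so reads of an antisense transcript and of the gene it overlaps cannot be told apart.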

How the data were processed

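RNA was measured in 2 PC-3 libraries, 1 per treatment, with 2 DU145 libraries beside them. The labels gave groups, doses and times. Per the file headers, the authors deposited CPM per Ensembl gene, already scaled to the library total. The genome build hg19 and the tools HTSeq 0.6.1, HISAT2 2.1.0 and bcl2fastq 2.19.1 stand in the submitters' processing notes without a role. No source used here states the annotation or the strand setting.

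In each PC-3 library 99.996% of values were whole multiples of its smallest step, within 0.01 step, so reads could be recovered and were taken as 2 per fragment. Values of exactly 1 step (313 with OICR-9429, 190 with DMSO) occurred only where the other PC-3 library had at least 10 reads, and were taken as 0. The libraries held 27798000 fragments with OICR-9429 and 29312000 with DMSO, and 3 fragments correspond to 0.108 CPM and 0.102 CPM in these libraries. With 1 library per treatment there are no residual degrees of freedom, so a count test on the recovered reads has no estimate of the spread and no test was made. The intervals treat PCR copies as independent molecules.

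Differences were computed on log2(CPM + 1) with a minimum of 1 CPM in the higher library. Ratios carry exact conditional binomial 95% intervals. Named genes were those with at least 5 CPM that were among the 15 highest or lowest, the 5 largest of each list, the 10 largest changes in CPM, or long non-coding RNAs chosen in the same way. Some were also named after their values were seen, among them the genes of the plots, those outside every list and nearly level members. The comparison, the lists and the genes were chosen with earlier results of these data known, and the ribosomal protein, nucleoporin, import, chaperonin and histone lists after values were seen. Lists overlap. Some genes and 1 list are not reported here. Promoter letters were matched by symbol. Alternatives were TMM scaling (edgeR 4.0.16 in R 4.3.3), median-of-ratios scaling, a pseudocount of 0.1 CPM, a minimum of 5 CPM, no minimum, leaving out the interferon and replication lists, and counting intervals. Python 3.11.15, numpy 2.4.6, pandas 2.3.3 and scipy 1.17.1 were used, and the scripts were tested on simulated data.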

Additional observations from a re-analysis of the deposited data

Results flagged for a closer look

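In PC-3 and DU145, 12 genes differed by at least 2-fold in opposite directions. They come from the named genes and the members of the described lists with at least 5 CPM in the higher library of each line. How often all genes do so was not counted, so the 12 have no share over all genes beside them. Among all counted genes 7.15% were higher and 8.68% lower in PC-3. In DU145 0.999% were higher and 8.01% lower, so lower genes were the more frequent there. C1S, outside that pool, had 2.30 in PC-3 and −1.85 in DU145. The difference between the lines was not tested, because each line had 1 library per treatment, and dose and medium differ with the line. Higher in PC-3 and lower in DU145 were NEAT1, with a log2 difference of 2.51 in PC-3 and −1.18 in DU145, TYMP with 1.91 in PC-3 and −1.02 in DU145, and ASS1, an enzyme of arginine synthesis, with 1.26 in PC-3 and −1.41 in DU145. IL6 had 1.20 in PC-3 and −1.29 in DU145, SLC7A2, an arginine transporter, had 1.19 in PC-3 and −1.13 in DU145, and DBP had 1.12 in PC-3 and −1.24 in DU145. CCL20, a chemokine, had 1.04 in PC-3 and −2.38 in DU145, ESRP1 had 1.04 in PC-3 and −1.19 in DU145, and GAS5 had 1.02 in PC-3 and −1.17 in DU145. Lower in PC-3 and higher in DU145 were PGK1, with −1.40 in PC-3 and 1.00 in DU145, LDHA with −1.70 in PC-3 and 1.19 in DU145, and ACOX2, a peroxisomal oxidase, with −1.72 in PC-3 and 1.03 in DU145.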

How the results depend on the processing

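The number of genes higher by 2-fold stayed within 1.5 times the reported one under every alternative run for it, with 901 to 1455 genes, and so did the number lower, with 1061 to 1682. Among the alternatives, the 95% counting interval outside 2-fold was chosen after seeing the data. TMM scaling shifted all differences by 0.03 and median-of-ratios scaling by −0.02 on the log2 scale, and the higher genes made up 43.2% to 47.6% of those called, against 45.2% as reported. The median of the integrated stress response list was 2.20 with a pseudocount of 0.1 CPM, against 1.90 as reported, which follows from the smaller pseudocount, since several of its members were low with DMSO. Across the medians and 2-fold counts of all gene lists, 8 moved past the limit set for them with that pseudocount. With a minimum of 5 CPM 7 did so, with median-of-ratios scaling 2 and with TMM scaling 1. Of 296 named genes past 2-fold, 293 remained so under TMM scaling and 293 under median-of-ratios scaling. All 296 remained so with a pseudocount of 0.1 CPM and with a minimum of 5 CPM, which was fixed in advance. A smaller pseudocount can only widen a difference, and these genes were chosen with at least 5 CPM. That 0 changed direction was fixed as well, since shifts of 0.03 and −0.02 cannot reverse a gene past 2-fold. These counts are therefore no check of the differences. No paired analysis was possible because each treatment had 1 library, and for the same reason no replicate could be left out. Depth limits genes near 3 fragments.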

Other observations

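Genes of nuclear transport stood lower in treated PC-3, on a list chosen after values were seen. Of 56 counted nucleoporins and transport factors 18 were lower and 0 higher, with a median of −0.65, against a median of −0.07 and 0 lower of 56 in DU145. KPNA2, an importin, stood at 94.8 CPM with OICR-9429 and 432 CPM with DMSO, and CSE1L, which recycles importins, at 163 CPM with OICR-9429 and 519 CPM with DMSO. The cytosolic chaperonin that folds actin and tubulin was on another such list, with 4 of 14 counted genes lower, 0 higher and a median of −0.90. Its subunit CCT7 stood at 111 CPM with OICR-9429 and 367 CPM with DMSO. Of 28 counted genes of mitochondrial protein import 6 were lower and 0 higher, among them TOMM40, the outer membrane pore, at 46.6 CPM with OICR-9429 and 123 CPM with DMSO.

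Clustered histone genes ran the other way. Of 28 counted genes, again a list chosen after values were seen, 13 were higher and 0 lower, with a median of 0.89, and in DU145 0 of 23 differed by 2-fold, with a median of −0.33. H2BC5 stood at 59.7 CPM with OICR-9429 and 11.3 CPM with DMSO, H2AC6 at 158 CPM with OICR-9429 and 42.2 CPM with DMSO, and H2BC21 at 78.9 CPM with OICR-9429 and 18.5 CPM with DMSO. Most histone mRNAs made in S phase lack a poly(A) tail, and close copies can share reads. H2AX, a variant outside these clusters, stood at 55.5 CPM with OICR-9429 and 244 CPM with DMSO.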
